A study of Mus musculus with 7 samples.

Results

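The receptor complex of megalin (Lrp2) and cubilin (Cubn), and the genes that assemble, sort and serve it, were followed in mouse kidney as 10 genes chosen by symbol. All 10 were among the 24328 gene symbols of the RNA-seq tables. They are the receptors and their chaperones (Lrp2, Cubn, Amn, Lrpap1), the adaptors (Dab2, Ap2m1), 2 endosomal genes (Clcn5, Ocrl) and 2 genes of ligand salvage and lysosomal export (Fcgrt, Ctns). Kidneys came from 3 LBR-null mice (4001, 4002 and 4007), homozygous for the allele Lbric-J (genotype Lbric-J/ic-J), and from 1 WT littermate (4009, genotype Lbr+/+). All were on the C57BL/6J background, were 4 weeks old and carried the label of no disease. The allele was inherited and not restricted to a cell type, no other allele or agent was given, and the labels gave no sex. Mouse 4002 was sequenced as 1 library and each other mouse as 2, from polyadenylated RNA of pulverized whole kidney. The libraries of a mouse were averaged, so that a replicate is a mouse (n = 3 against n = 1). Because the WT group was 1 animal, variation among WT mice was not measured.

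Megalin and cubilin are giant receptors of the brush border of the proximal tubule, where they take up filtered albumin, vitamin carriers, hormones and enzymes from the forming urine. Cubilin has no membrane anchor of its own and reaches the surface with amnionless, and megalin is folded with the help of the receptor-associated protein. Cargo enters through clathrin-coated pits, is released in acidified endosomes and is degraded in lysosomes, while the receptors return to the surface. Loss of the receptors, of the chloride-proton exchanger ClC-5 or of the phosphatase OCRL is known to cause loss of small proteins into the urine.

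The values were read counts divided by the size factor of the library, called normalized counts here. The WT libraries had 26333284 and 22969010 reads on genes and the LBR-null libraries from 20694016 to 25296831, and 1 read was worth 0.787 to 1.15 normalized counts. Lbr itself was at 322, 340 and 471 normalized counts in mice 4001, 4002 and 4007 and at 398 in the WT mouse, so the RNA of the mutated gene did not separate the genotypes and could not check the labels. Xist was at 35.5 normalized counts in the WT mouse, at 65.3 in mouse 4002, at 5785 in mouse 4001 and at 9940 in mouse 4007. For the Y-linked gene Ddx3y these mice had 1284, 1516, 141 and 44.3 normalized counts. Mouse 4002 was therefore the LBR-null mouse with levels of both genes nearest to those of the WT mouse, and the members are given for it separately below.

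Lrp2, Lrpap1, Cubn, Amn and Dab2, 5 of the 10 members, were below the WT libraries in each of the 5 LBR-null libraries. They stood at 35.1%, 43.2%, 52.5%, 53.0% and 66.1% of the WT level in the mean of the LBR-null mice. No member lay above the WT libraries throughout. Over all 17283 genes with a mean of at least 5 normalized counts, 25.7% were lower in every LBR-null library and 25.5% were higher, so such separation was common in this comparison. Among the 7 members with a mean of at least 1000 normalized counts, 5 were lower in every library, beside 26.7% of the 4824 genes at that level. The mean was at least 2-fold lower for 2 members (Lrp2 and Lrpap1), beside 7.04% of all genes tested, and at least 2-fold higher for 0 members, beside 14.5%.

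The test across all genes, limma on log2(normalized counts + 1) of the mouse means with Benjamini-Hochberg adjustment, called no member when a call needed both a 2-fold change and an adjusted p under 0.05. It called 0.00% of all genes lower and 0.00% higher, with 2 residual degrees of freedom. At an unadjusted p under 0.05, limma gave 4 members as lower (Lrp2, Lrpap1, Amn and Cubn), beside 8.05% of all genes, and 0 as higher, beside 10.7%. The quasi-likelihood test of edgeR on recovered reads called 0 members, beside 0.156% of all genes lower and 0.00579% higher. DESeq2 on the same reads called 2 members lower, Lrp2 and Lrpap1, beside 3.48% of the 16612 genes it adjusted, and 0 higher, beside 3.24%. An exact permutation test of 3 mice against 1 cannot give a p below 0.25. The median log2 fold change of the 10 members was −0.48, and that of all genes tested was 0.0073.

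**Figure D1:**
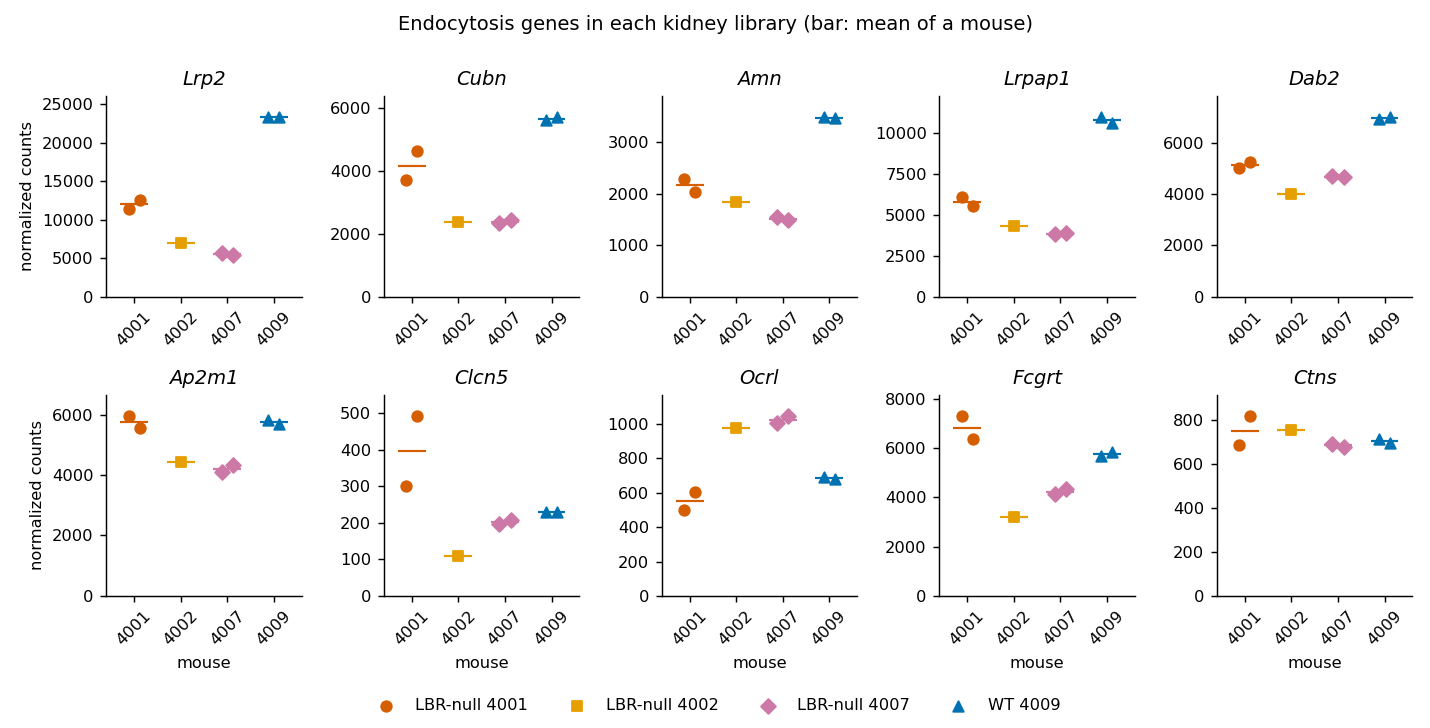
Normalized counts (vertical axis, from 0) of the 10 endocytosis genes in each library, by mouse. Points are libraries and bars the mean of a mouse. Every LBR-null library of Lrp2, Cubn, Amn, Lrpap1 and Dab2 lies below both WT libraries, while for Ap2m1, Clcn5, Ocrl, Fcgrt and Ctns some LBR-null libraries lie above the WT libraries.

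Lrp2 encodes megalin and occupies mm9 chr2:69262397-69424122 on the minus strand. It was at 11445 and 12525 normalized counts in the libraries of LBR-null mouse 4001, at 7019 in mouse 4002, at 5722 and 5398 in mouse 4007, and at 23313 and 23327 in the WT mouse. The lowest WT library was thus above the highest LBR-null library, and the LBR-null mice themselves ran from 23.8% of the WT level in mouse 4007 through 30.1% in mouse 4002 to 51.4% in mouse 4001. The mean was 8188 ± 3368 (SD, n = 3) against 23320 in the WT mouse. The log2 fold change was −1.59 ± 0.47 (SE), with a 95% interval from −2.72 to −0.456 and an adjusted p of 0.152 by limma. The adjusted p was 0.150 by edgeR and 0.0232 by DESeq2, where the log2 fold change was −1.52. Of all genes tested, 2.97% had a lower log2 fold change.

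Lrpap1 encodes the receptor-associated protein, a chaperone that keeps newly made megalin from binding ligands in the endoplasmic reticulum, and lies at mm9 chr5:35434139-35448415 on the minus strand. It was at 6094 and 5519 normalized counts in mouse 4001, 4313 in mouse 4002, 3816 and 3898 in mouse 4007, and 10976 and 10611 in the WT mouse. The groups did not overlap, and the order of the LBR-null mice was that of Lrp2. The mean was 4659 ± 1020 (SD, n = 3) against 10794, a log2 fold change of −1.23 ± 0.32 (SE). The adjusted p was 0.126 by limma, 0.129 by edgeR and 0.0121 by DESeq2, and 5.13% of genes tested had a lower log2 fold change.

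Cubn encodes cubilin and lies at mm9 chr2:13197965-13413551 on the minus strand. It was at 3693 and 4616 normalized counts in mouse 4001, 2369 in mouse 4002, 2328 and 2435 in mouse 4007, and 5604 and 5703 in the WT mouse. Mouse 4001, at 73.5% of the WT level, stood apart from mice 4002 and 4007, at 41.9% and 42.1%. The log2 fold change was −0.98 ± 0.38 (SE), with an adjusted p of 0.240 by limma, 0.258 by edgeR and 0.193 by DESeq2. Of the exon bases of Cubn, 1.36% overlap Gm13270 on the other strand, and the strand setting of the read counting was not given in the sources used here.

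Amn encodes amnionless, the membrane partner of cubilin, and lies at mm9 chr12:112509322-112514637 on the plus strand. It was at 2280 and 2037 normalized counts in mouse 4001, 1839 in mouse 4002, 1547 and 1483 in mouse 4007, and 3483 and 3458 in the WT mouse. All 5 LBR-null libraries were below the WT libraries, and the LBR-null mice spread less for Amn than for the receptors, from 43.7% to 62.2% of the WT level. The mean was 1838 ± 322 (SD, n = 3) against 3470.3, a log2 fold change of −0.93 ± 0.28 (SE). The adjusted p was 0.156 by limma, 0.148 by edgeR and 0.0633 by DESeq2.

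Mouse 4001 had the highest LBR-null value for 8 of the 10 members, and results rested on it. With mouse 4001 left out, limma called 4 members lower, namely Lrp2 (adjusted p = 0.0190), Cubn (0.0227), Lrpap1 (0.0242) and Amn (0.0372). It then also called 1163 of all genes tested, in place of 0, from 2 LBR-null mice and 1 residual degree of freedom. With mouse 4002 left out, limma called 625 genes and 0 members, and with mouse 4007 left out 0 genes. Mouse 4001 was also the mouse whose libraries differed most from each other, by 1.63-fold for Clcn5, 1.21-fold for Ocrl and 1.19-fold for Ctns, and between Clcn5 and Ocrl came the receptor gene Cubn, at 3693 and 4616 normalized counts. Mouse 4002, the nearest to the WT mouse in Xist and Ddx3y, had Lrp2 at 30.1%, Lrpap1 at 40.0%, Cubn at 41.9%, Amn at 53.0% and Dab2 at 57.3% of the WT level. The part of sex in these values was not tested.

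**Figure D2:**
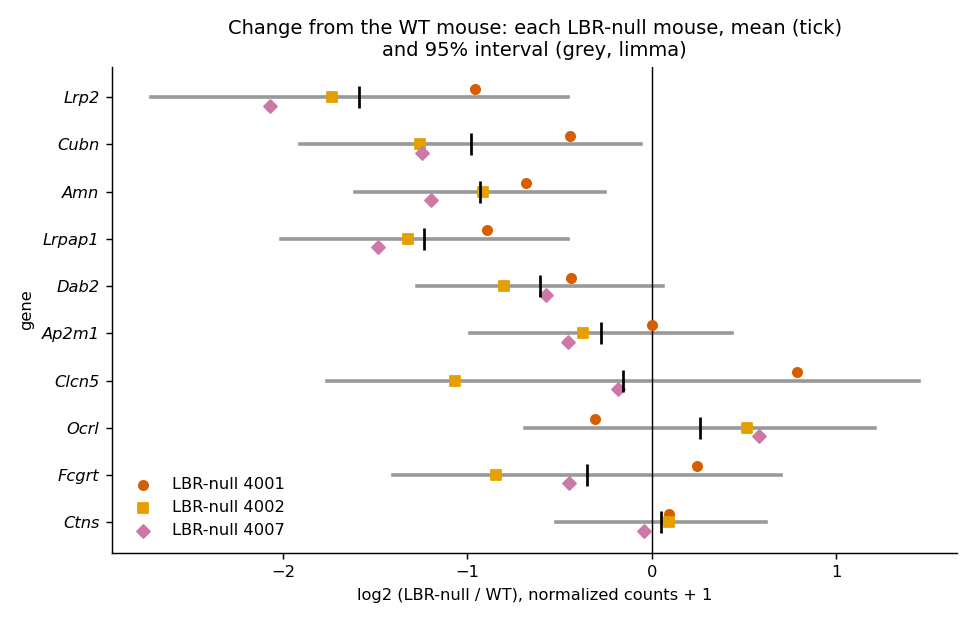
Change of each endocytosis gene from the WT mouse on the log2(normalized counts + 1) scale (horizontal axis), with genes on the vertical axis. Points are the 3 LBR-null mice, ticks their mean and grey bars the 95% interval of limma. The intervals of Lrp2, Cubn, Amn and Lrpap1 lie below 0, and mouse 4001 is nearest to 0 for these genes.

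The start regions of the 4 receptor and chaperone genes are shown because these genes had the lowest log2 fold changes among the members, with that of Ctns beside them as the member whose log2 fold change was nearest to 0. The windows are those of RefSeq (GRCm38.p6), 300 bases from 250 before the start, and each was found once, letter for letter, in mm9, whose coordinates are given. Each is printed 5′ to 3′ along its gene, with CpG dinucleotides in capitals. The windows are Lrp2 chr2:69424037-69424336 (minus strand), Lrpap1 chr5:35448299-35448598 (minus strand), Amn chr12:112509057-112509356 (plus strand), Cubn chr2:13413454-13413753 (minus strand) and Ctns chr11:73012472-73012771 (minus strand, the first of 2 windows).
Lrp2: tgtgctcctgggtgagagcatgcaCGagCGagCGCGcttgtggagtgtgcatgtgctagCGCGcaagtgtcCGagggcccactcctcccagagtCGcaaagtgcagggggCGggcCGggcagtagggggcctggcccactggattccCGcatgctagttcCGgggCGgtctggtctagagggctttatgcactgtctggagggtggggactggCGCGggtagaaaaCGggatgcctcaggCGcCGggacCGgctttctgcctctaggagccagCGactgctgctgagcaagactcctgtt
Lrpap1: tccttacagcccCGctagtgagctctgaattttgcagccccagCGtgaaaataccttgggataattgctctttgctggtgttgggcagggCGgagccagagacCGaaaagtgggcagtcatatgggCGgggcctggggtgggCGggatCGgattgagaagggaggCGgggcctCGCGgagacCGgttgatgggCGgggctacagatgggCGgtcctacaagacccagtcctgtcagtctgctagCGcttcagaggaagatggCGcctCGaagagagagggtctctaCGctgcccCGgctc
Amn: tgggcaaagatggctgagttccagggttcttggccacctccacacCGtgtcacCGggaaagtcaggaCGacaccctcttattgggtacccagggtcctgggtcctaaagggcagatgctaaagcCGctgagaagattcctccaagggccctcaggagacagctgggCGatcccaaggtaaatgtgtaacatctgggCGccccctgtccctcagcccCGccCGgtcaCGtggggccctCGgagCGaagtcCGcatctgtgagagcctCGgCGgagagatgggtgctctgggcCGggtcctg
Cubn: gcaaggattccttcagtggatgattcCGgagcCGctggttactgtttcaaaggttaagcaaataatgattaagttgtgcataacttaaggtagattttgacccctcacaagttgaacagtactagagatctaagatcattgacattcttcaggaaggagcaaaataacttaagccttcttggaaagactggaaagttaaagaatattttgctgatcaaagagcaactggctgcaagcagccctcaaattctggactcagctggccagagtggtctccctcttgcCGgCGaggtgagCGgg
Ctns: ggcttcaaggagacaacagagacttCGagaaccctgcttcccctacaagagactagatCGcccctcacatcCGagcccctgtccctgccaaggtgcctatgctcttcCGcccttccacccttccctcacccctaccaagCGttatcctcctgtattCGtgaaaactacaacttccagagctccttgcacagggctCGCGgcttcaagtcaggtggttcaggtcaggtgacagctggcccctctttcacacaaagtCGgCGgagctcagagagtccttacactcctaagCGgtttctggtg

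The windows of Lrp2, Lrpap1 and Amn held 20, 18 and 15 CpG dinucleotides, that of Cubn held 5 and that of Ctns held 11. The median of 32851 windows was 7 (quartiles 3 and 20). The GC content was 65.0% for Lrp2, 61.3% for Lrpap1, 62.3% for Amn, 44.3% for Cubn and 56.3% for Ctns. Over the 13 windows of all members, searched on both strands, the GC box GGGCGG was in 8 windows (of Lrp2, Lrpap1, Amn, Ap2m1, Clcn5, Ocrl and Ctns), beside 35.7% of all windows. The windows of Ctns overlap and share the same GC box, which was counted in both. CCAAT was in 1 (Amn) beside 37.4%, TATAAA in 1 (Clcn5) beside 13.6%, GTTAAT in 1 (Dab2) beside 7.10%, and TCACGTGA in 0 beside 0.974%. Of the 10 members, 9 had a stretch with the composition of a CpG island near a start, Fcgrt being the exception, beside 83.1% of 14939 genes tested.

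Of the adaptors, Dab2 encodes disabled 2, which binds the tail of megalin and recruits it to clathrin, and which macrophages also express (mm9 chr15:6249788-6390712, plus strand). It was at 5027 and 5237 normalized counts in mouse 4001, 3992 in mouse 4002, 4700 and 4653 in mouse 4007, and 6921 and 7001 in the WT mouse. The groups did not overlap, and Dab2 did not follow the order of the mice seen for Lrp2, since its lowest value was in mouse 4002. The log2 fold change was −0.61 ± 0.28 (SE), with a 95% interval from −1.27 to 0.0628 and an adjusted p of 0.306 by limma. Ap2m1 encodes the medium subunit of the general clathrin adaptor AP-2, which every cell uses (chr16:20535551-20544982, plus strand). Its LBR-null mice were at 99.9%, 77.3% and 73.1% of the WT level (mice 4001, 4002 and 4007), with a log2 fold change of −0.28 ± 0.29 (SE) and an adjusted p of 0.664 by limma.

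The endosomal genes lay on both sides of the WT mouse. Clcn5 encodes ClC-5, the exchanger needed to acidify endosomes (chrX:6730936-6896484, minus strand). It was at 301 and 492 normalized counts in mouse 4001, 109 in mouse 4002, 196 and 208 in mouse 4007, and 228 and 231 in the WT mouse. The libraries of mouse 4001 were above the WT libraries and the other LBR-null libraries below them, so its log2 fold change of −0.16 had an interval from −1.76 to 1.45 and turned sign with the method. Ocrl encodes a phosphatase of phosphoinositides on endosomes (chrX:45265564-45319045, plus strand). It was at 501 and 606 normalized counts in mouse 4001, 978 in mouse 4002, 1002 and 1044 in mouse 4007, and 689 and 679 in the WT mouse. Mouse 4001 was at 80.9% of the WT level and mice 4002 and 4007 at 143% and 149%, and the log2 fold change was 0.26 ± 0.39 (SE, limma adjusted p = 0.764).

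Of the genes that handle cargo after uptake, Fcgrt encodes the neonatal Fc receptor, which returns albumin and IgG to the body and is also made by endothelium and macrophages (mm9 chr7:52348363-52359192, minus strand). It was at 118%, 55.6% and 73.4% of the WT level in mice 4001, 4002 and 4007, with a mean of 4746 ± 1863 normalized counts (SD, n = 3) against 5758. Ctns encodes cystinosin, which exports cystine from lysosomes (chr11:72997098-73012544, minus strand). It ran from 674 to 815 normalized counts over the 5 LBR-null libraries and was at 713 and 693 in the WT libraries, so the groups overlapped throughout. Its mean was 104% of the WT level and its log2 fold change 0.05, with an interval from −0.520 to 0.617 that allows a change of either sign.

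Divided by the length of the exons, the levels of the members were ordered within a mouse. The lengths are those of GENCODE vM1 and may differ from the gene models used for counting, which would shift the level of a gene, and any ratio with it, by the same factor in every library. In the WT mouse the order in normalized counts per kb was Fcgrt (3313), Lrpap1 (2615), Amn (2060), Lrp2 (1396), Ap2m1 (1379), Dab2 (948), Cubn (478), Ctns (207), Ocrl (72.1) and Clcn5 (20.0). Lrp2 and Ap2m1 overlapped between the WT libraries. In the mean of the LBR-null mice the order was Fcgrt (2731 ± 1072, SD, n = 3), Ap2m1 (1151 ± 199), Lrpap1 (1129 ± 247), Amn (1091 ± 191), Dab2 (627 ± 78.2), Lrp2 (490 ± 202), Cubn (251 ± 86.9), Ctns (215 ± 11.5), Ocrl (89.8 ± 27.3) and Clcn5 (20.6 ± 12.8). Ap2m1, Lrpap1 and Amn did not differ beyond their spread, nor did Dab2 and Lrp2 or Cubn and Ctns.

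Ratios between members are given as descriptions. Lrp2 had the lowest log2 fold change of the members, so a ratio of another member to it is higher in the mean of the LBR-null mice by construction. Per length, Cubn per Lrp2 was 0.489, 0.477 and 0.606 in mice 4001, 4002 and 4007 and 0.343 in the WT mouse, and every LBR-null library (0.456 to 0.638) was above both WT libraries. Dab2 per Lrp2 was 0.975, 1.29 and 1.91 against 0.679. Ocrl per Lrp2 was 0.0811, 0.245 and 0.324 against 0.0517. Amn per Cubn, the ratio between the partners of the cubilin complex, was 4.54 ± 0.868 (SD, n = 3) against 4.30, which lay within the spread of the LBR-null mice. Lrpap1 per Lrp2 was 2.42 ± 0.425 against 1.87, with 1 LBR-null library (1.78) below the WT libraries. No ratio was tested.

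**Figure D3:**
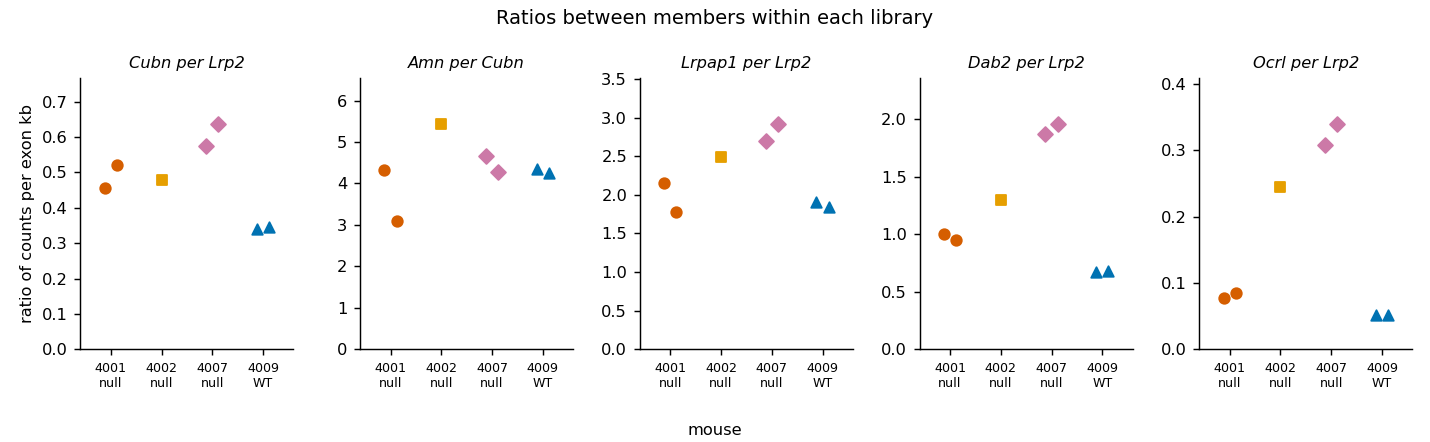
Ratios between members within each library, as normalized counts per kb of exon (vertical axis, from 0), by mouse. Points are libraries. Cubn, Dab2 and Ocrl per Lrp2 are higher in all LBR-null libraries than in the WT libraries, while Amn per Cubn overlaps between the groups.

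The lists of the wider endocytic machinery had medians between −0.22 and −0.07. The median log2 fold change was −0.22 for 16 genes of the clathrin coat and its adaptors, −0.07 for 18 genes of endosome sorting and recycling, −0.10 for 20 tested genes of the vacuolar proton pump and −0.19 for 22 lysosomal genes. By mouse (4001, 4002 and 4007), the medians were 0.13, −0.40 and −0.35 for the lysosomal genes, 0.12, −0.09 and −0.21 for the proton pump and 0.09, −0.08 and −0.14 for endosome sorting, with mouse 4001 on the other side of the WT mouse from mice 4002 and 4007. For the clathrin list they were −0.30, −0.13 and −0.24, all on one side. Limma called no gene of these lists, and DESeq2 called only Ehd1, which reshapes recycling endosomes. Ehd1 was at 1433 ± 176 normalized counts (SD, n = 3) against 3045 in the WT mouse, a log2 fold change of −1.09 (adjusted p = 0.114 by limma and 0.00998 by DESeq2). Of the clathrin list, 7 genes were lower and 3 higher in every LBR-null library. The counts were 3 and 4 for endosome sorting, 6 and 2 for the proton pump, and 8 and 1 for the lysosome. These shares compare with 25.7% lower and 25.5% higher over all genes.

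Within each list, the genes with the lowest and highest log2 fold changes were named by a fixed rule. In the clathrin list these were the light chain gene Cltb (−0.59) and the membrane-bending adaptor Epn1 (−0.54), and on the other side Eps15 (0.36) and Hip1r (0.72), which links coated pits to actin. In endosome sorting they were Rab38 (−1.31, at 81.5 ± 23.3 normalized counts against 197) and Ehd1, and on the other side Rab11b (0.32), a GTPase of recycling endosomes, and Appl2 (0.81, at 1818 ± 353 against 1023), which marks early endosomes. In the proton pump they were Atp6ap1 (−0.41) and Atp6v1b2 (−0.38), and Atp6v1g3 (0.29) and Atp6v0a4 (0.93). The last is the form of intercalated cells and the proximal tubule and was at 8386 ± 4758 normalized counts against 3973. Atp6v0c was near 0 in the tables while its partner subunits were abundant, and it was not tested. In the lysosome list they were the glucuronidase gene Gusb (−0.83, at 373 ± 39.0 against 660) and Ctsz (−0.78, at 2064 ± 24.8 against 3546), and the protease gene Ctsl (0.89) and the sialic acid exporter gene Slc17a5 (0.92, at 2208 ± 563 against 1147). None of these genes passed the test of limma.

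The ligand carriers and the enzymes that act on vitamins taken up by megalin and cubilin had a median log2 fold change of 0.23 over 11 genes, with 1 lower and 4 higher in every LBR-null library. Tcn2 encodes transcobalamin, the carrier with which cobalamin is taken up. It was at 13440 ± 2092 normalized counts (SD, n = 3) against 25665, a log2 fold change of −0.95 (adjusted p = 0.226 by limma, and 0.0448 by DESeq2 with a change under 2-fold). Mmachc, which processes cobalamin inside cells, was at −0.43. Cyp24a1, which inactivates vitamin D, was at 1237, 802 and 2610 normalized counts in mice 4001, 4002 and 4007 and at 343 in the WT mouse. Its mean was 4.52-fold the WT value, with an adjusted p of 0.157 by limma and 0.00988 by DESeq2. Gc, the vitamin D carrier that megalin takes up, was at 4887, 889 and 4030 normalized counts against 509, a log2 fold change of 2.35 (adjusted p = 0.235 by limma and 0.214 by DESeq2). For both genes all 3 LBR-null mice were above the WT mouse, with mouse 4002 the nearest to it.

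**Figure D4:**
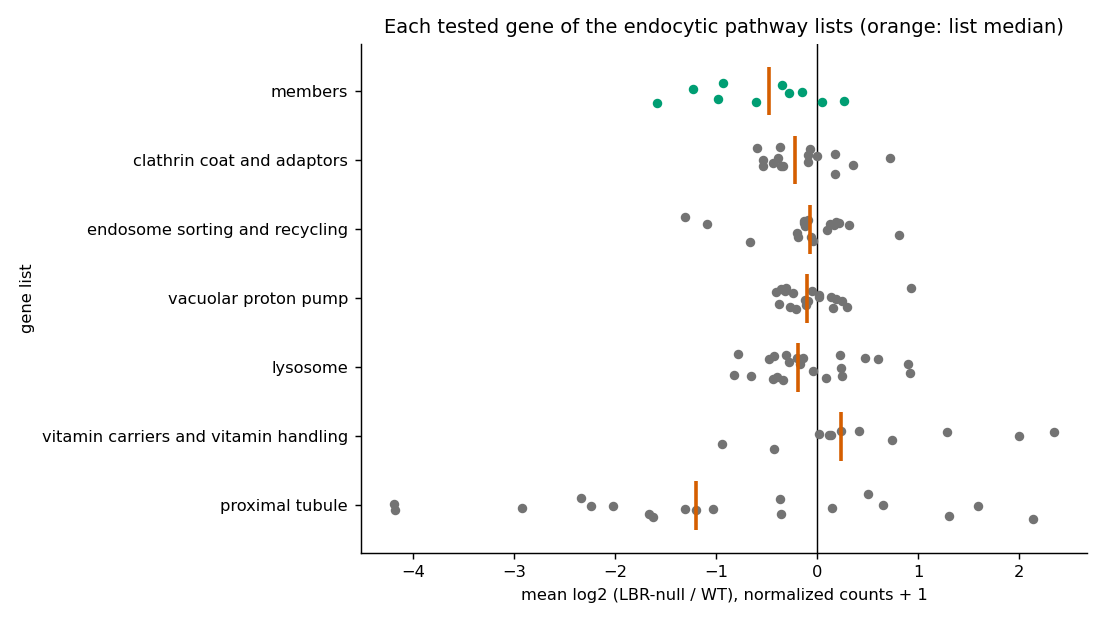
Mean log2 fold change of each tested gene on the log2(normalized counts + 1) scale (horizontal axis), by gene list (vertical axis). Points are genes, and orange lines are list medians. The median of the 10 endocytosis genes is −0.48 and that of the proximal tubule genes is −1.20, while the medians of the other 5 lists plotted lie between −0.22 and 0.23.

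Other genes of the proximal tubule lay on both sides of the WT mouse. Of 19 proximal tubule genes other than the members, 12 were lower in every LBR-null library and 5 were higher, beside 25.7% and 25.5% of all genes. The median log2 fold change of the 19 genes was −1.20. Their summed level was 329553 to 536544 normalized counts in the LBR-null mice and 702227 in the WT mouse, and none was at 0. The sum was led by Kap, at 128162, 205800 and 59162 normalized counts in mice 4001, 4002 and 4007 against 357146 in the WT mouse. Without Kap, left out after its values were seen, the sums were 408382, 256591 and 270391 against 345081, so that mouse 4001 lay above the WT mouse. These sums still held Pck1, which went the other way from Kap. Pck1 was at 188203, 87425 and 99628 normalized counts in mice 4001, 4002 and 4007 against 39117 in the WT mouse. A sum without both genes was not made. Limma called 0 of the 19 genes, and edgeR called 1 lower, beside 0.156% of all genes, and 0 higher. DESeq2 called 8 of them lower and 2 higher, beside 3.48% and 3.24% of the genes it adjusted. The lowest were the organic anion transporter gene Slc22a6 (−4.19), Miox (−4.18), which breaks down inositol, Acsm2 (−2.92) and Slc22a8 (−2.34). The phosphate transporter gene Slc34a1 was at 21038 ± 7499 normalized counts (SD, n = 3) against 64099. On the other side, the amino acid transporter gene Slc6a19 (2.13), the gluconeogenic enzyme gene Pck1 (1.59), the lactate transporter gene Slc5a12 (1.30), the water channel gene Aqp1 (0.65) and Slc27a2 (0.51) were higher in every LBR-null library. In whole kidney, fewer proximal tubule cells and less RNA per cell cannot be told apart.

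**Figure D5:**
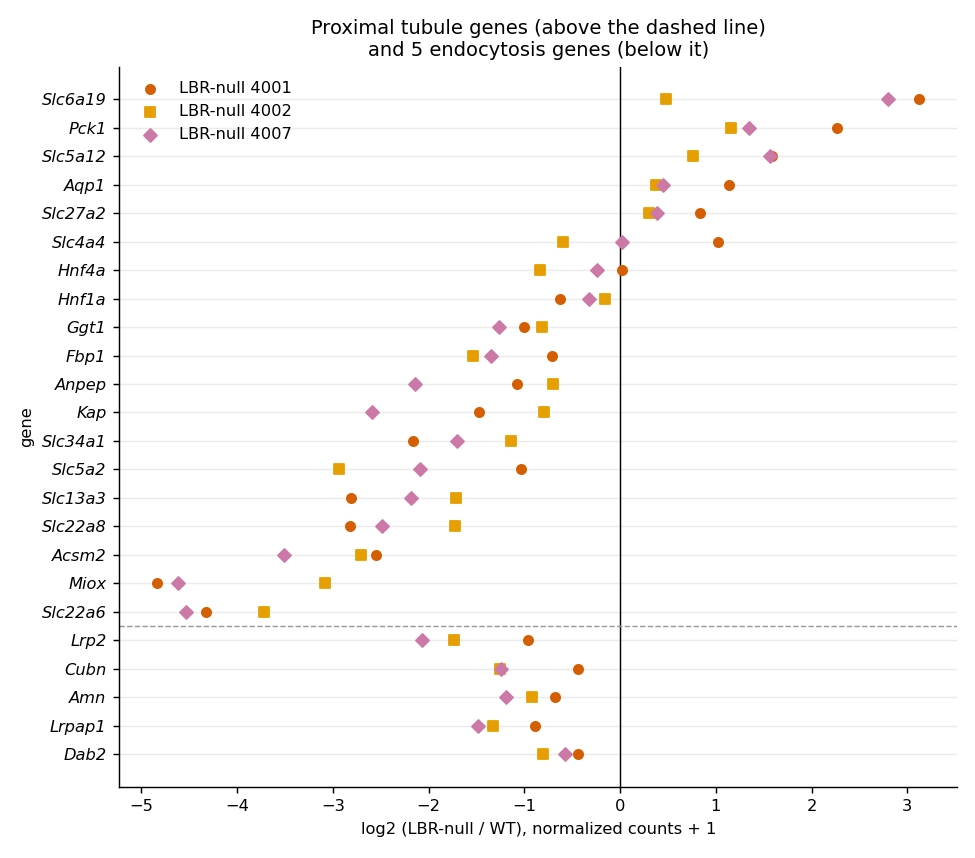
Change of 19 proximal tubule genes (above the dashed line) and of 5 endocytosis genes (below it) from the WT mouse, on the log2(normalized counts + 1) scale (horizontal axis). Points are the 3 LBR-null mice. The 5 endocytosis genes lie left of 0 in every LBR-null mouse, while the proximal tubule genes reach from Slc22a6 (mean −4.19) on the left to Slc6a19 (2.13) on the right.

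Markers of other kidney cells also differed between the groups. All 5 fibroblast and mural cell genes were lower in every LBR-null library, with a summed level of 10140 to 19908 normalized counts against 39369. All 6 macrophage genes were lower as well, at 2112 to 2408 against 3524, and 4 of 5 podocyte genes were, at 8306 to 16692 against 19926. Of the 6 neutrophil genes 5 were higher in every LBR-null library, at 375 to 2395 against 78.5. Endothelial genes were summed at 11344 to 14828 against 15201, with 1 of 5 lower in every library. The sums of LBR-null mice lay on both sides of the WT mouse for the thick ascending limb (91531 to 212690 against 101093), the principal cells (26724 to 45586 against 27172) and the intercalated cells (8598 to 11663 against 10605). Distal convoluted tubule genes were at 14224 to 25327 against 26179 (2 of 4 lower and 1, Trpm6, higher in every LBR-null library), and T and B cell genes at 89.0 to 114 against 129 (2 of 6 lower and 1, Cd3e, higher). No gene of these lists was at 0 in all libraries, and their part in the values of the members was not tested.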

How the data were processed

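Libraries were made from polyadenylated RNA of whole right kidneys, and it was not stated whether the 2 libraries of a mouse came from separate aliquots. The authors used STAR 2.6.0 for alignment to mm9 and deposited one signal per gene symbol and library, the read count divided by the size factor of DESeq2 1.25.1. The program that counted reads, its annotation and its strand setting are not given in the sources used here. Every value was a whole multiple of the value of 1 read within 0.01 (100% of values), so reads were recovered by division. The labels name genotype, age and mouse, from which the groups were taken.

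Libraries were averaged within a mouse. The 17283 genes whose mean reached 5 normalized counts were tested with limma 3.58.1 (eBayes with trend, in R 4.3.3) on the log2(normalized counts + 1) scale. P-values were adjusted over all of them by Benjamini-Hochberg, and a call needed an adjusted p under 0.05 and a 2-fold change. The fit takes the variance of the single WT mouse to be that of the LBR-null group. Reads summed per mouse were tested with the quasi-likelihood method of edgeR 4.0.16 and with DESeq2 1.42.0 as alternatives. Fold changes on the log2(normalized counts + 1) scale understate those of low genes. The precision is set by the number of mice, and the intervals cover variation among WT mice only as assumed from the LBR-null mice.

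Gene models and exon lengths were those of GENCODE vM1 on mm9, and start windows and motifs were read from RefSeq (GRCm38.p6). The members and gene lists were chosen with earlier results of these data known, so their counts and medians are descriptions. The named genes are all members and, of each pathway list, the 2 tested genes with the lowest and the 2 with the highest log2 fold change. Proximal tubule genes other than these were named after their values were seen.

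Some genes are not reported here.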

Additional observations from a re-analysis of the deposited data

How the results depend on the processing

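The median log2 fold change of the members stayed negative under all 15 alternatives (−0.67 to −0.37), whereas the number of genes called did not hold. limma called 0 genes in the main fit, 1 with a mean of at least 50, and 1 with WT library 2 alone. edgeR called 28 genes and DESeq2 1117. Using the 7 libraries with the mouse as a block called 847 genes, and the library number as a replicate block called 1313. The fit with the replicate block used the 6 numbered libraries and so also left out mouse 4002, and the effects of both choices were not separated. Each of these last 3 fits (DESeq2, the mouse block and the replicate block) called 2 members, in place of 0. Leaving out 1 mouse gave 0 to 1163 genes and 0 to 4 members, the most without mouse 4001. The cause of these differences was not tested. The library numbers did not pair the samples, as the deviations of same-numbered libraries correlated at −0.0026 to −0.066 over 13066 genes. The log2 fold change of Clcn5 (−0.16) turned positive with edgeR (0.044), DESeq2 (0.047) and the replicate block without mouse 4002 (0.28), and ran from −0.63 to 0.30 when a mouse was left out, the highest without mouse 4002. The lowest library value of a member was 109 normalized counts, for Clcn5.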

Other observations

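Other receptor genes named as relatives of Lrp2 were measured in the same kidneys. Lrp1, a broad scavenger receptor gene, was at 1860 ± 240 normalized counts (SD, n = 3) against 2848 in the WT mouse, a log2 fold change of −0.62 (adjusted p = 0.263 by limma). Lrp12 was at 157 ± 9.13 against 265, a log2 fold change of −0.75 (adjusted p = 0.249 by limma and 0.209 by DESeq2). Both were lower in every LBR-null library. On the other side, the Wnt coreceptor gene Lrp6 was at 5172 ± 1386 against 3294, higher in every LBR-null library, with an adjusted p of 0.387 by limma. Lrp1b had a log2 fold change of 2.45 at low levels, 17.2 to 27.4 normalized counts in the LBR-null mice against 3.44 in the WT mouse (adjusted p = 0.113 by limma and 0.0332 by DESeq2). Lrp1 and Lrp6 were named after their values were seen.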
